A study of Mus musculus with 19 samples.

Results

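The genes described here are 10 genes of antigen presentation: the class I heavy chains H2-D1, H2-K1 and H2-T23, the class I light chain B2m, the peptide transport and loading genes Tap1, Tap2 and Tapbp, the immunoproteasome subunits Psmb8 and Psmb9, and the class II invariant chain Cd74. They were chosen by symbol, and all 10 were found among the 60567 entries of the deposited expression table, of which 39274 had a value above 0 in at least 1 sample. RNA of cells sorted from the hippocampus of 9 month-old C57bl6 male mice was sequenced in 19 samples. WT-GFP samples (n = 7) were GFP+ astrocytes of wild-type mice given an AAV vector for GFP, and GFP- samples (n = 3) were the remaining cells of the same WT-GFP group. APP-GFP samples (n = 4) were GFP+ astrocytes of APP mice, a transgenic Alzheimer's disease (AD) model with a chimeric mouse/human App gene bearing the Swedish mutations, given the same GFP vector. APP-SOCS3 samples (n = 5) were GFP+ astrocytes of such mice given a vector for SOCS3, an inhibitor of the JAK2-STAT3 pathway, together with the GFP vector at an equal total viral load. Every animal thus carried the GFP vector, which was injected in the CA1 region and driven by the astrocyte promoter gfaABC1D. The vector labels only infected astrocytes, so the GFP- cells could include astrocytes without vector beside microglia, neurons and oligodendrocyte precursors. Each hippocampus of a mouse was processed on its own. The study gives as many mice as GFP+ samples in each of the astrocyte groups, and the mice behind the GFP- samples are not given in the sources used here, so these may share mice with WT-GFP samples. The p-values measure the spread between the samples.

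Class I molecules are built from a heavy chain and B2m, and they display peptides of proteins made inside the cell to T cells. The proteasome cuts the peptides, TAP1 and TAP2 form the transporter that carries them into the endoplasmic reticulum, and tapasin, the product of Tapbp, holds empty class I molecules at that transporter. Interferon exchanges catalytic subunits of the constitutive proteasome for those of the immunoproteasome, PSMB8 in place of PSMB5 and PSMB9 in place of PSMB6. CD74 belongs to the other route: it escorts class II molecules of professional antigen-presenting cells and fills their groove until they reach the endosome. In the brain, class I genes are active in endothelial cells and microglia, and class II genes are mostly found in macrophages and activated microglia.

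Of the 10 genes, 8 lie on chromosome 17, where the major histocompatibility complex of the mouse is found. Promoter sequence was available from RefSeq (build GRCm38.p6, equal in coordinates to mm10) for 8 of the genes, and none was used for Tap2 and Cd74. The 250 bases before each start were searched on both strands for GAAANNGAA, an interferon-response motif, TTCNNNGAA, the core bound by STAT factors, and GGGATTCC, an NF-kB motif. These letters occurred in the same window of 7.13%, 7.02% and 0.889% of all 32851 mouse promoters in turn. The interferon-response letters stood 139 bases before the start of B2m and 123 bases before that of H2-T23, the NF-kB letters 170 bases before that of H2-D1 and 110 before the nearer of 2 RefSeq starts of H2-K1, and the STAT letters 97 before that of Psmb8. The promoters of Tap1, Tapbp and Psmb9 held none of the 3 strings of letters in these windows. Other forms of the motifs were not searched, so any of the 8 promoters may hold some, those of H2-D1 and H2-K1 included. The 5 windows around these matches are shown because they hold the letters searched for. Capitals mark the match, which in H2-T23 lies on the opposite strand and so reads in reverse complement, and each sequence runs 5′ to 3′ along the strand of its gene, upstream of the transcribed part.
B2m, chr2:122147502-122147601, plus strand: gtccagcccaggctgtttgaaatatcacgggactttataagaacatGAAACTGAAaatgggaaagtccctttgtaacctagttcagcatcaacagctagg
H2-T23, chr17:36032771-36032870, minus strand: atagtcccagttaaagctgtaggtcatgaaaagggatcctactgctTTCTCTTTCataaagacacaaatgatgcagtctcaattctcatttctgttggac
H2-D1, chr17:35262878-35262977, plus strand: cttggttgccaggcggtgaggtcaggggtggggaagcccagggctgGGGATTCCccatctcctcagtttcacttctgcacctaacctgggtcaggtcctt
H2-K1, chr17:34000404-34000503, minus strand: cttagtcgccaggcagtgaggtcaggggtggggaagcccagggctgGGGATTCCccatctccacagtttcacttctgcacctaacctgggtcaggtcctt
Psmb8, chr17:34198052-34198151, plus strand: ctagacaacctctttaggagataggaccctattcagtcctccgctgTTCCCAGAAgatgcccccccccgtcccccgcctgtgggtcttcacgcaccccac
The windows of H2-D1 and H2-K1 were the same at 96 of 100 positions, whereas the other pairs matched at 18 to 30 positions. A match is a description of letters only, and no binding was measured.

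Levels are the normalised read counts deposited by the authors, that is, reads divided by a size factor of the library. Reads assigned to genes ranged from 19331876 to 32621917 over the 19 samples. Between 15575 and 26757 genes were detected in the GFP+ samples and between 30807 and 31897 in the GFP- samples. The lowest were WT-GFP 1, 2 and 3 and APP-GFP 2, which each had fewer than 20000 genes. Socs3, the transferred gene, lay at 13296 to 37750.1 in APP-SOCS3 samples, against 438 to 1639 in the other GFP+ samples. GFP- cells, from mice given no SOCS3 vector, lay at 10319.7 to 17689. The summed level of 12 astrocyte markers was 557162 to 1033262 in GFP+ samples and 24265 to 75703 in GFP- samples, so the sorted cells matched their label. Markers of other cells were nevertheless present in GFP+ samples. A list of 13 microglia markers summed to 100471 to 178742 in GFP- samples, and to 8733 to 31821 for WT-GFP, 6841 to 12819 for APP-SOCS3 and 12344 to 56858 for APP-GFP samples. A list of 12 endothelial markers summed to 152807 to 242063 in GFP- samples, and to 4879 to 45032, 1389 to 7631 and 6838 to 39056 for the GFP+ groups in the same order. In such bulk samples, fewer cells of a type and less RNA per cell cannot be told apart.

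All 10 genes had their highest mean level in GFP- cells. GFP- cells had higher levels than WT-GFP astrocytes for 9 of the 10 genes, by 2.07-fold for Tapbp to 8.87-fold for H2-T23, and more for Cd74. No gene passed the threshold between APP-GFP and WT-GFP astrocytes. Between APP-SOCS3 and APP-GFP astrocytes, H2-D1, B2m and Cd74 were lower at an unadjusted p, and none kept this after adjustment over all genes.

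**Figure D1:**
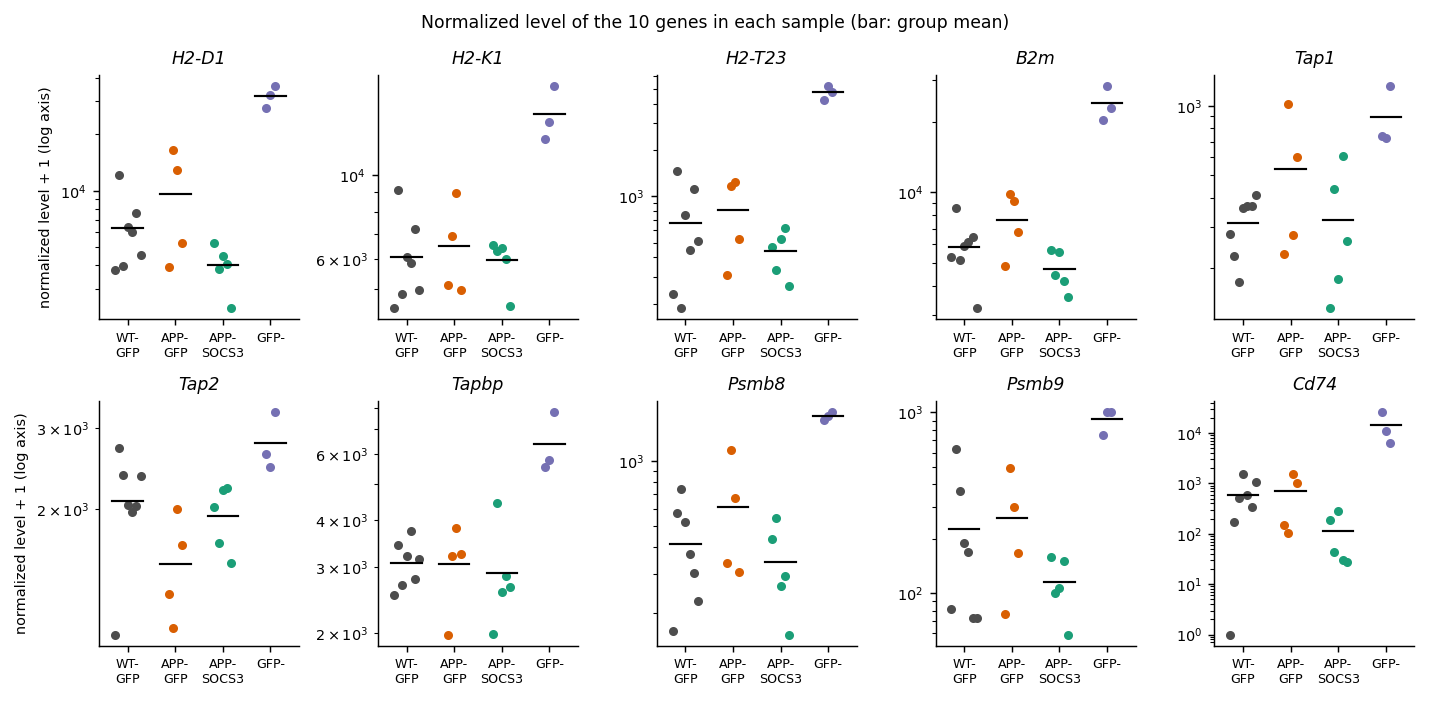
Normalised level plus 1 on a log axis for each of the 10 genes, with 1 point per sample, columns for the 4 groups and a bar at the group mean. The 3 GFP- samples lie above all 7 WT-GFP samples for 9 genes, and Tap2 is the exception.

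The first comparison, GFP- cells against WT-GFP astrocytes, addresses which genes the sort left behind. Genes were called where the unadjusted limma p was no higher than 0.05 and the fold change reached 1.5. All 9 calls were higher in GFP-, where 33.5% of the 26709 genes tested were called higher and 9.25% lower, 42.8% in all. The adjusted p was below 0.05 for 9 genes, against 31.9% of genes, and the groups did not overlap for 9 genes, against 34.8% of genes. The median log2 difference of the 10 genes was 2.10, whereas that of all genes tested was 1.31. This shift of all genes shrank to 0.62 after equalising upper quartiles, to 0.65 in DESeq2 and to 0.37 in edgeR. Relative to 1.31, 7 of the genes stood above and H2-K1, Tapbp and Tap2 stood below. After equalising upper quartiles, H2-K1 (0.52) and Tapbp (0.29) were no longer called. With 3 against 7 samples the exact permutation test cannot give a p below 0.00833, and 7 of the genes reached it. This test was run on listed genes only, so no share of all genes can be given beside the 7. Without the WT-GFP samples that had fewer than 20000 genes detected, 9 genes were again called, and the median log2 difference of all genes was 0.80.

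The comparison of APP-GFP with WT-GFP astrocytes addresses which genes differ with the AD genotype in GFP+ samples. None of the 10 genes was called, against 2.23% of the 22969 genes tested, and none had an unadjusted limma p of at most 0.05, against 2.36%. edgeR and DESeq2 also called none. No gene had groups that did not overlap, against 0.313% of all genes, and none had an adjusted p below 0.05, against 0.00435%. The log2 difference was above 0 for 8 genes and below 0 for Tap2 and Tapbp, with a median of 0.39 beside 0.09 for all genes. In samples with at least 20000 genes detected, a restriction chosen after seeing the data, H2-T23 (-0.18), Tap1 (-0.16) and Cd74 (-0.28) turned below 0 and H2-D1 was at 0.09.

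The next comparison, APP-SOCS3 against APP-GFP astrocytes, addresses which genes differ with the SOCS3 vector in GFP+ samples of the AD model. Called genes numbered 3, all lower in APP-SOCS3, where 3.37% of the 22844 genes tested were called lower and 5.7% were called in all. None passed an adjusted p of 0.05, which 0.00438% of genes did, and all 10 genes had overlapping groups, whereas 2.01% of genes did not overlap. The log2 difference was below 0 for 9 genes and above 0 for Tap2, with a median of -0.70 beside 0.08 for all genes. With DESeq2, H2-T23 (log2 -0.87) and Psmb9 (log2 -1.18) were called lower as well, beside the 3 genes called with limma. The 3 limma calls rested on few samples. Without APP-GFP 3 or without APP-SOCS3 5 none remained, and without APP-GFP 1 there were 5. In the first 2 of these fits B2m was at log2 -0.570 and -0.5847, beside -0.68 with all samples, and missed only the 1.5-fold threshold. H2-D1 (-0.85 and -0.90) and Cd74 (-1.81 and -2.10) missed the p threshold there. Without APP-GFP 2, the only sample of this comparison with fewer than 20000 genes detected, Cd74 was called (log2 -3.10), whereas H2-D1 (-0.74) and B2m (-0.54) were not. B2m again missed only the fold threshold.

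Against WT-GFP astrocytes, APP-SOCS3 samples had 1 called gene, H2-D1, which was lower. In this comparison 2.02% of the 22958 genes tested were called lower and 5.21% in all. No member passed the adjusted threshold, against 0.0305% of genes, and none had groups that did not overlap, against 0.566%. The median log2 difference was -0.26 beside 0.19 for all genes, and all 10 genes lay below the median of all genes. The comparisons share samples, WT-GFP in 3 of them and APP-GFP and APP-SOCS3 in 2 each, so their values are not independent. In the samples with at least 20000 genes, H2-D1 (-0.64) and Cd74 (-3.38) were called lower in APP-SOCS3 than in WT-GFP.

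**Figure D2:**
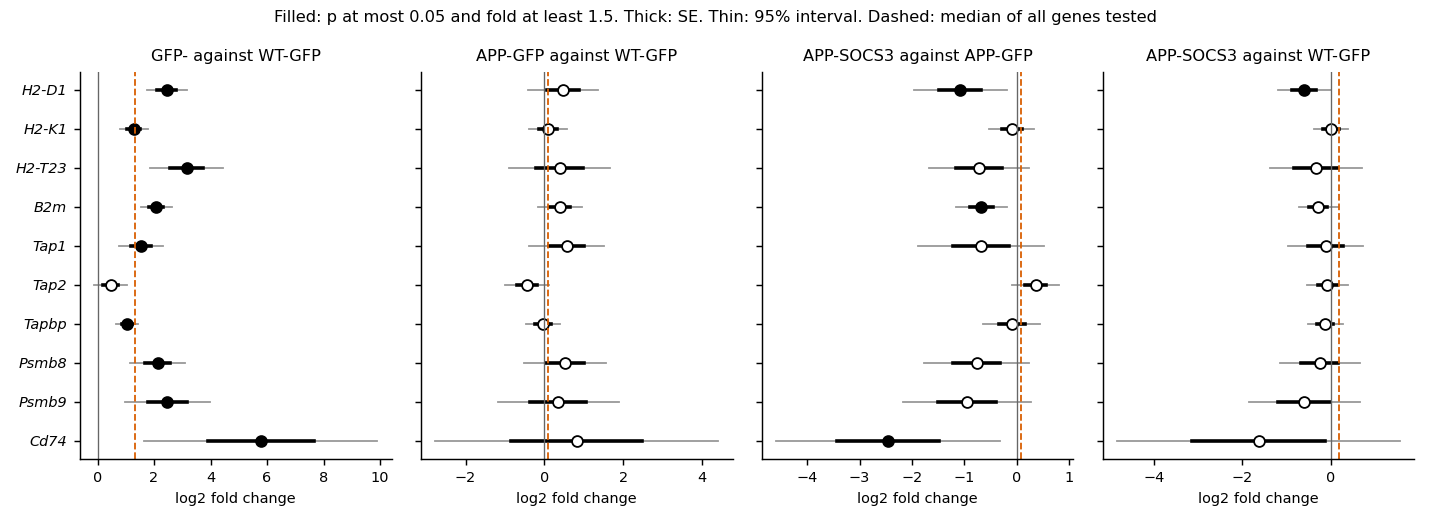
Log2 fold change of each gene in the 4 comparisons, with SE as the thick bar, the 95% interval as the thin bar, filled points where p was at most 0.05 and the fold at least 1.5, and a dashed line at the median of all genes tested. The panel of GFP- against WT-GFP has 9 filled points, all right of 0. The APP-SOCS3 panels have 3 and 1, all left of 0, and the remaining panel has none.

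Among the heavy chains, H2-D1 encodes a classical class I molecule. Its level in WT-GFP samples ran from 3777 to 12068 with a median of 6045. The APP-GFP samples had 3928, 16477, 12961 and 5235, and the APP-SOCS3 samples 5235, 3831, 4462, 4084 and 2361. GFP- samples had 27764, 32231 and 36363. APP-GFP 2 and 3 were the high samples among the astrocytes, and the other 2 APP-GFP samples lay within the range of WT-GFP. The mean was 32119 ± 4301 (SD, n = 3) for GFP- cells. For astrocytes it was 3995 ± 1056 (SD, n = 5) under SOCS3, 9650.2 ± 6049.9 (SD, n = 4) in APP-GFP mice and 6338 ± 2884 (SD, n = 7) in WT-GFP mice. H2-D1 was 5.44-fold higher in GFP- cells than in WT-GFP astrocytes (log2 2.44, SE 0.32, adjusted p = 0.000201, limma). The log2 difference between APP-GFP and WT-GFP was 0.47 (SE 0.41, exact permutation p = 0.358). H2-D1 was 2.11-fold lower in APP-SOCS3 than in APP-GFP (log2 -1.07, 95% interval -1.96 to -0.19, limma p = 0.0217, adjusted p = 0.681), and the exact permutation test gave p = 0.0714. It was 1.52-fold lower in APP-SOCS3 than in WT-GFP (log2 -0.60, limma p = 0.0493, adjusted p = 0.875), with an exact permutation p of 0.0795. The groups overlapped in both of these comparisons: APP-SOCS3 1 was level with APP-GFP 4.

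H2-K1 encodes the other classical class I heavy chain of this strain. Its WT-GFP levels ran from 4451 to 9114 with a median of 5844, beside 5119.8, 6923, 8982 and 4974 in APP-GFP and 6541, 6289.5, 6419, 6020.2 and 4511 in APP-SOCS3 samples. GFP- samples had 12412, 13803 and 17204. All APP-SOCS3 samples lay within the WT-GFP range, and the sample APP-SOCS3 5 stood apart below the other 4 of its group. Among astrocyte samples, only some of WT-GFP and APP-GFP lay above the highest APP-SOCS3 sample, at 6541. The mean was 14473 ± 2465 (SD, n = 3) for GFP- cells. For astrocytes it was 5956 ± 831 (SD, n = 5) under SOCS3, 6499 ± 1877 (SD, n = 4) in APP-GFP mice and 6071 ± 1629 (SD, n = 7) in WT-GFP mice. H2-K1 was 2.43-fold higher in GFP- cells (log2 1.28, SE 0.22, adjusted p = 0.00134, limma). Between APP-SOCS3 and APP-GFP the log2 difference was -0.10 (95% interval -0.52 to 0.33, exact permutation p = 0.659), and between APP-SOCS3 and WT-GFP it was 0.00 (95% interval -0.38 to 0.38). H2-K1 thus did not show the difference called for H2-D1, but whether the difference itself differed between the genes was not tested. H2-D1 and H2-K1 are close in sequence, and how reads that match both were assigned is not given in the sources used here, so their split is uncertain.

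H2-T23 encodes Qa-1, a non-classical class I molecule that shows signal peptides of other class I chains to natural killer cell receptors. WT-GFP samples ran from 186 to 1466 with a median of 508, and the highest were WT-GFP 2 and 6. The APP-GFP samples had 305, 1159, 1243 and 523, and the APP-SOCS3 samples 468, 329, 528, 622 and 260.1. GFP- samples had 4198, 5224 and 4777, all above every astrocyte sample. H2-T23 was 8.87-fold higher in GFP- than in WT-GFP samples (log2 3.15, SE 0.59, adjusted p = 0.00219, limma). Its log2 difference was 0.38 (SE 0.59, exact permutation p = 0.558) in APP-GFP against WT-GFP and -0.72 (SE 0.43, p = 0.214 by the same test) in APP-SOCS3 against APP-GFP.

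B2m is the light chain shared by the class I molecules. WT-GFP samples ran from 3206 to 8606 with a median of 5934, the APP-GFP samples had 4869, 9793, 9195 and 6781, and the APP-SOCS3 samples 5684, 4429, 5559.7, 4198 and 3590.1. GFP- samples had 20412, 28486 and 22939. APP-GFP 2 and 3 were again the highest astrocyte samples, and APP-GFP 1 lay within the APP-SOCS3 range. The mean was 23945 ± 4130.0 (SD, n = 3) for GFP- cells. For astrocytes it was 4692 ± 903 (SD, n = 5) under SOCS3, 7659 ± 2271 (SD, n = 4) in APP-GFP mice and 5824 ± 1624 (SD, n = 7) in WT-GFP mice. B2m was 4.22-fold higher in GFP- cells than in WT-GFP astrocytes (log2 2.08, SE 0.25, adjusted p = 0.000108, limma). The log2 difference between APP-GFP and WT-GFP was 0.39 (SE 0.25, exact permutation p = 0.191). B2m was 1.6-fold lower in APP-SOCS3 than in APP-GFP (log2 -0.68, 95% interval -1.16 to -0.19, limma p = 0.0106, adjusted p = 0.641), and the exact permutation test gave p = 0.0317. Between APP-SOCS3 and WT-GFP the log2 difference was -0.28 (SE 0.21, exact permutation p = 0.234).

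Tap1 and Tap2 encode the paired chains of the peptide transporter and showed unlike patterns. Tap1 ran from 172 to 411 in WT-GFP samples with a median of 359. APP-GFP samples had 228, 1017, 276 and 598, APP-SOCS3 samples 132, 436, 177, 604 and 258, and GFP- samples 737, 724 and 1219.7. APP-GFP 2 alone among the astrocyte samples reached the range of the GFP- cells. Tap1 was 2.9-fold higher in GFP- than in WT-GFP samples (log2 1.53, SE 0.35, adjusted p = 0.00682, limma). Tap2 ran from 1069 to 2719 in WT-GFP samples with a median of 2048, with 1306, 1106, 2005 and 1673 in APP-GFP, 2025, 1689, 2208, 2220.1 and 1530.1 in APP-SOCS3 and 2632, 2477 and 3254 in GFP- samples. Its groups overlapped in every comparison. Tap2 was the gene whose difference between GFP- and WT-GFP samples was not called (log2 0.46, 95% interval -0.12 to 1.04, exact permutation p = 0.133). In the astrocyte comparisons the log2 difference of Tap1 was 0.57 (exact permutation p = 0.224) in APP-GFP against WT-GFP and -0.68 (p = 0.31 by the same test) in APP-SOCS3 against APP-GFP. For Tap2 the signs were opposite, at -0.44 and 0.37 (exact permutation p = 0.13 and 0.135).

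Tapbp, which encodes tapasin, had the least spread of the 10 genes, relative to its mean, in WT-GFP samples. Levels ran from 2529.7 to 3739 in WT-GFP with a median of 3160.4, beside 1979.7, 3207, 3815 and 3252 in APP-GFP, 1981, 4454, 2579, 2831 and 2645 in APP-SOCS3 and 5545, 5812 and 7791 in GFP- samples. The astrocyte groups overlapped throughout, and all GFP- samples lay above them. Tapbp was 2.07-fold higher in GFP- than in WT-GFP samples (log2 1.05, SE 0.17, adjusted p = 0.000989, limma). The log2 difference was -0.03 (SE 0.20, exact permutation p = 0.879) in APP-GFP against WT-GFP and -0.09 (SE 0.25, p = 0.738 by the same test) in APP-SOCS3 against APP-GFP.

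The immunoproteasome subunits Psmb8 and Psmb9 were low and variable in astrocytes. Psmb8 ran from 164 to 738 in WT-GFP samples with a median of 372, and reached 339, 1120.4, 676 and 307 in APP-GFP and 437, 547, 263, 294 and 157 in APP-SOCS3 samples. GFP- samples lay close together at 1542, 1614 and 1678, above every astrocyte sample. Psmb8 was 4.36-fold higher in GFP- than in WT-GFP samples (log2 2.13, SE 0.44, adjusted p = 0.00423, limma). Psmb9 ran from 71.5 to 630.2 in WT-GFP samples with a median of 169, with 76, 490.5, 301 and 166 in APP-GFP, 158, 98.6, 106, 149 and 58 in APP-SOCS3 and 747, 1006 and 1003 in GFP- samples. WT-GFP 2 and APP-GFP 2 were the high astrocyte samples. Psmb9 was 5.55-fold higher in GFP- than in WT-GFP samples (log2 2.47, SE 0.68, adjusted p = 0.0185, limma). Between APP-SOCS3 and APP-GFP the log2 difference was -0.77 for Psmb8 (SE 0.46, exact permutation p = 0.198) and -0.95 for Psmb9 (SE 0.56, p = 0.159 by the same test). Between APP-GFP and WT-GFP it was 0.52 and 0.35 in turn (exact permutation p = 0.318 and 0.642).

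Cd74 is the invariant chain of class II. WT-GFP samples had 0, 168, 517, 1527, 575, 336 and 1083, APP-GFP samples 151, 102, 1518 and 1026, and APP-SOCS3 samples 184, 42.8, 287, 29.4 and 26.4. GFP- samples had 26189.9, 11209.7 and 6247. No APP-SOCS3 sample passed 287, whereas APP-GFP 3 and 4 and WT-GFP 4 and 7 had 1026 to 1527. The mean level in GFP- samples was 14549 ± 10382 (SD, n = 3) and that in WT-GFP samples 601 ± 535 (SD, n = 7), a ratio of 24.2. The fitted log2 difference was 5.77 (95% interval 1.64 to 9.91, adjusted p = 0.0371, limma), and it depended on WT-GFP 1, which had no Cd74 read. Without that sample it was 4.47. Cd74 was 5.48-fold lower in APP-SOCS3 than in APP-GFP (log2 -2.45, 95% interval -4.60 to -0.31, limma p = 0.0286, adjusted p = 0.724), and the exact permutation test gave p = 0.0794. Against WT-GFP its log2 difference in APP-SOCS3 was -1.63 (exact permutation p = 0.388), and -2.94 without WT-GFP 1, where it passed the threshold. In APP-GFP against WT-GFP it was 0.82 (95% interval -2.78 to 4.42, exact permutation p = 0.806), and it turned to -0.48 without WT-GFP 1.

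Ratios within a sample do not depend on the scaling between samples, and they are given as a description with no test. The H2-D1 to H2-K1 ratio was 2.11 to 2.34 in GFP- samples, 0.523 to 0.800 under SOCS3, 0.767 to 2.38 for APP-GFP and 0.817 to 1.32 for WT-GFP samples. Every APP-SOCS3 sample thus lay below every WT-GFP sample, and the APP-GFP range overlapped those of all other groups. APP-GFP 2 had 2.38 and APP-GFP 3 had 1.44. The Psmb8 to Psmb5 ratio, of an immunoproteasome subunit to the constitutive subunit it replaces, was 0.620 to 0.922 in GFP- samples, 0.0595 to 0.186 under SOCS3, 0.0886 to 0.323 for APP-GFP and 0.0523 to 0.209 for WT-GFP samples. The Psmb9 to Psmb6 ratio was 0.179 to 0.238 in GFP- samples and 0.00750 to 0.0658 across all astrocyte samples. Both ratios were therefore higher in all GFP- samples than in any astrocyte sample. The Psmb10 to Psmb7 ratio separated the groups less, with 0.738 to 1.05 in GFP- samples and 0.467 to 0.965 across the astrocyte samples. The Tap1 to Tap2 ratio was 0.280 to 0.375 in GFP- samples and 0.0654 to 0.272 in WT-GFP and APP-SOCS3 samples, but 0.357 in APP-GFP 4 and 0.919 in APP-GFP 2.

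**Figure D3:**
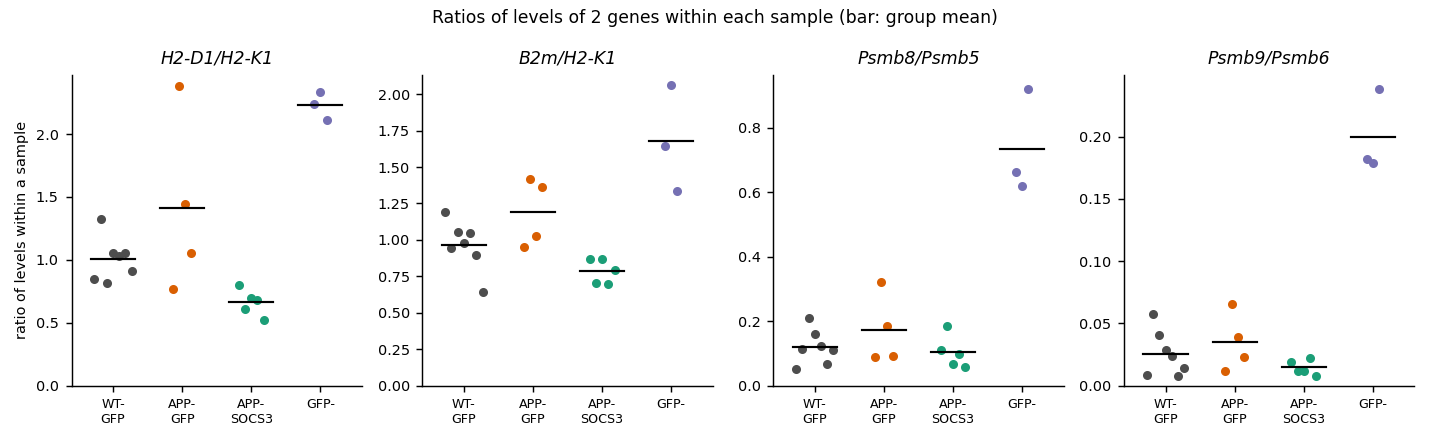
Ratios of the levels of 2 genes within each sample, with 1 point per sample, columns for the 4 groups and a bar at the group mean, on linear axes that start at 0. The Psmb8 to Psmb5 and Psmb9 to Psmb6 ratios of GFP- samples lie above those of every astrocyte sample, and the H2-D1 to H2-K1 ratios of APP-SOCS3 samples lie between 0.523 and 0.800.

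A wider list of 40 genes of the pathway was examined by role, and 39 matched 38 entries of the table. In GFP- against WT-GFP samples, 20 of the 38 were called higher and 2 lower, and 19 did not overlap (33.5%, 9.25% and 34.8% of all genes), with a median log2 difference of 1.42 beside 1.31 for all genes. The 2 lower genes were constitutive proteasome subunits, the set that the immunoproteasome replaces. Psmb5 differed by log2 -0.59 (exact permutation p = 0.0583) and Psmb6 by -0.80 (p = 0.0167 by the same test), and Psmb7 was not called, with -0.10 (p = 0.742). Of 8 other class I and class I-like heavy chains, 4 were called higher, among them H2-Q4 (log2 5.02, adjusted p = 0.00301, limma) and H2-T24 (log2 5.34, adjusted p = 0.00768), with medians of 5.89 and 3.93 in WT-GFP samples. The entry of H2-Q6 (log2 0.76, adjusted p = 0.00343, limma) also covers Ddx39b and 2 microRNA genes. Of 5 loading genes, 2 were called higher, the chaperone genes Calr (log2 0.62, adjusted p = 0.00591, limma) and Canx (log2 1.04, adjusted p = 0.0391). Calr, Canx and the entry of H2-Q6 all lay below the median of 1.31 for all genes tested. Of 4 further immunoproteasome and activator genes, 1 was called higher, Psme1, named after its value was seen. Of 9 class II genes, 8 were called higher, with H2-Aa at 8.22 (SE 2.23, adjusted p = 0.0173, limma) and H2-Ab1 at 7.36 (adjusted p = 0.0264). These 2 genes encode the class II chains that Cd74 escorts, and each was at 0 in 3 of 7 WT-GFP samples, so the fitted size depends on the added 1. Of 9 regulators, 5 were called higher. Irf1, an interferon-induced transcription factor, was at 2.83 (adjusted p = 0.000108, limma) and Nlrc5, the class I transactivator, at 6.11 (adjusted p = 0.0225). The fitted size of Nlrc5 also depends on the added 1, since it was at 0 in 4 of 7 WT-GFP samples, and its groups overlapped, with 199 in the highest WT-GFP sample and 146 in the lowest GFP- sample. Ciita, the class II transactivator, was not called (2.32, adjusted p = 0.155, limma).

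In APP-GFP against WT-GFP astrocytes, 1 of the 38 entries was called, beside 2.23% of all genes, and the median log2 difference was 0.52 beside 0.09 for all genes. The gene was H2-Ob, a class II accessory chain named after its value was seen (3.24, adjusted p = 0.999, limma), and 4 of 7 WT-GFP samples had it at 0. In APP-SOCS3 against APP-GFP astrocytes 5 of the 38 were called, all lower, beside 3.37% of all genes, and 4 of these were class II genes, chosen for mention after their values were seen. H2-DMb1, which helps to exchange the peptide in class II molecules, was the only 1 of the 38 whose groups did not overlap, beside 2.01% of all genes. It was at 0 to 9.67 in APP-SOCS3 samples, whereas the APP-GFP range was 11.8 to 165 (log2 -4.45, SE 1.12, adjusted p = 0.576, limma, and exact permutation p = 0.0159). Since 4 of the 5 APP-SOCS3 samples had at most 3 reads of H2-DMb1, its fitted size depends on the added 1. Ctss, a protease that trims the invariant chain, had 823 to 1805 in APP-SOCS3 samples, whereas the APP-GFP samples reached from 1797 to 14617 (log2 -2.23, exact permutation p = 0.0159). The others were H2-Ab1, at 1.96 to 90.0 under SOCS3 and 28.1 to 428 across APP-GFP samples, H2-Eb1, at 0 to 39 and 19 to 255, and the class I gene H2-Q4, at 0 to 2.94 and 1.74 to 30.4. H2-Q4 had at most 3 reads in all 5 APP-SOCS3 samples and H2-Eb1 was at 0 in 2 of 5, so no fold is given for them. The 9 class II genes had a median of -2.98, whereas the 38 entries had -0.26. Ctss and the class II chains are also made by microglia and macrophages, whose markers moved in the same direction: 8 border macrophage markers summed to 201 to 566 across APP-GFP samples and 0 to 187 under SOCS3. The part of these cells in the differences of the class II genes was not tested. The transcription factors named here were not called: Irf1 was at -0.78, Nlrc5 at 0.72 and Ciita at -1.58. The constitutive subunits were not called, with Psmb5 at -0.13, Psmb6 at 0.12 and Psmb7 at -0.07. Against WT-GFP, 2 of 35 tested entries were called lower in APP-SOCS3, beside 2.02% of all genes, H2-DMb1 (-3.66) and Ctss (-1.15).

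**Figure D4:**
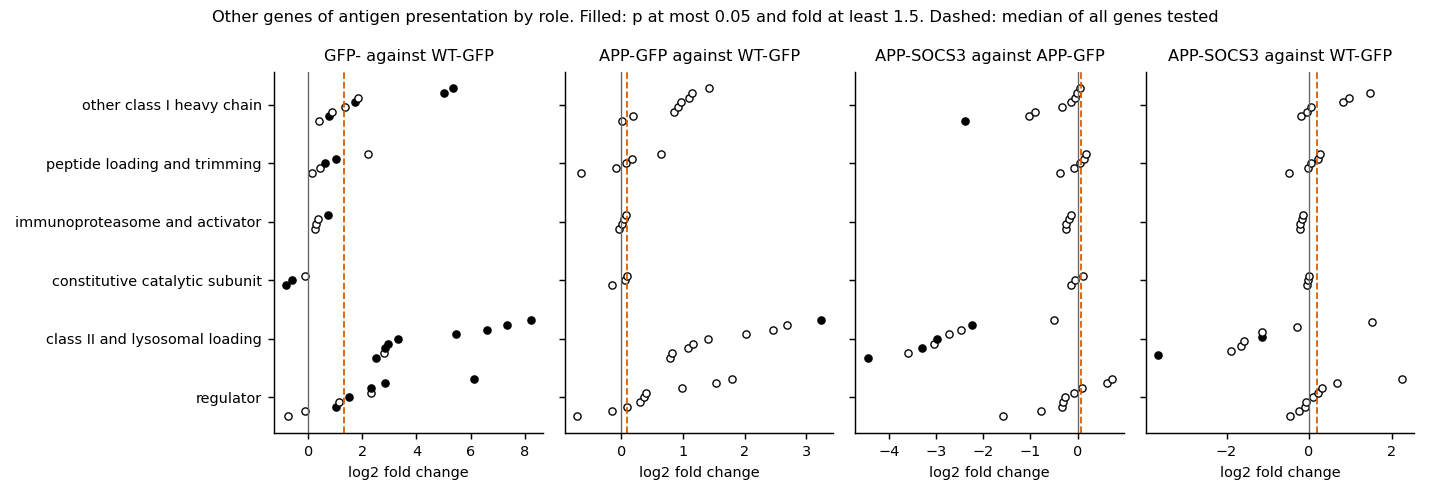
Log2 fold change of the other genes of antigen presentation, with 1 point per gene, roles in rows and comparisons in panels, filled where p was at most 0.05 and the fold at least 1.5, and a dashed line at the median of all genes tested. The point farthest right in GFP- against WT-GFP (H2-Aa, 8.22) and the point farthest left in APP-SOCS3 against APP-GFP (H2-DMb1, -4.45) are class II genes, which have a median of -2.98 in the latter.

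Many markers of other cell types were lower in APP-SOCS3 than in APP-GFP samples, as were most members. In APP-GFP against WT-GFP samples, 2 of 13 microglia and 1 of 7 tested border macrophage markers were called higher. There 0 of 12 endothelial and 0 of 10 mural markers were called, beside 2.23% of all genes. In APP-SOCS3 against APP-GFP samples, 12 of 13 microglia markers, 12 of 12 endothelial markers, 6 of 8 border macrophage markers and 4 of 10 mural markers were called lower, and 0 of 12 astrocyte markers were called. Of the other lists, 3 of 5 oligodendrocyte precursor, 2 of 7 neuron and 1 of 5 tested oligodendrocyte markers were called lower. None of 3 tested B and dendritic cell markers was called. Of all genes tested, 3.37% were called lower. Cx3cr1 of microglia differed by log2 -1.34 (exact permutation p = 0.0238), Cldn5 of endothelial cells by -2.49 (p = 0.0238) and Aqp4 of astrocytes by 0.18 (p = 0.492). Against WT-GFP, 8 of 13 microglia and 10 of 12 endothelial markers were called lower in APP-SOCS3, beside 2.02% of all genes. So were 4 of 10 mural, 2 of 5 oligodendrocyte precursor and 1 of 4 tested oligodendrocyte markers. No neuron marker and no tested border macrophage marker was called there. The samples high in H2-D1 and B2m, APP-GFP 2 and 3, also had the highest microglia sums, 45347 and 56858, and WT-GFP 2, high in H2-D1 and Psmb9, had the highest endothelial sum, 45032. T and NK cell markers summed to 0 to 31 in astrocyte samples and 476 to 707 in GFP- samples, with Cd3d at 0 in every WT-GFP and APP-SOCS3 sample and Cd8a at 0 in every APP-GFP and APP-SOCS3 sample. The part of these cells in the members' differences was not tested beyond fits with a list as a covariate. With the mean of the microglia or endothelial list in the fit, none of the 3 genes lower in APP-SOCS3 than in APP-GFP was called. H2-D1 turned to 0.23 with either list. Cd74 was at -0.77 with the microglia list, but at -2.25 with the endothelial list, close to its -2.45 without a covariate. The lists themselves differed between the groups, so a covariate also takes up part of any group difference.

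Over the 16 GFP+ samples, levels of the members were correlated with the 2 lists on the log2 scale, 20 relations in all. H2-D1 followed the endothelial list with r = 0.800 (rho = 0.818, permutation p = 0.00021, adjusted 0.0042), and r was 0.786 without the 2 farthest samples. It followed the microglia list with r = 0.740 (rho = 0.694, permutation p = 0.00106, adjusted 0.0106), which dropped to 0.519 without the 2 farthest samples. B2m had r = 0.721 with the microglia list (rho = 0.732, permutation p = 0.00175, adjusted 0.0117) and 0.521 without the 2 farthest. In all, 10 of the 20 relations had an adjusted permutation p below 0.05: H2-D1, B2m, Psmb8 and Psmb9 with both lists, Cd74 with the microglia list and H2-T23 with the endothelial list. These relations were not computed for other genes, so no share of all genes can be given beside the 10. H2-K1 did not, at r = 0.474 with the microglia list and 0.482 with the endothelial list (both adjusted permutation p = 0.084). The 16 samples span 3 groups, so group means are part of these relations. After removing group means, r with the microglia and endothelial lists was 0.549 and 0.701 for H2-K1 and 0.596 and 0.777 for H2-D1, so these genes differed less. Tap2 was at -0.03 with the microglia list. Within the 7 WT-GFP samples none of the 20 relations passed, and H2-D1 had r = 0.299 with microglia and 0.741 with endothelial markers, the latter falling to 0.075 without 2 samples. Within the 9 samples of APP mice, H2-D1 had r = 0.881 with either list and B2m 0.915 with the microglia list and 0.866 with the endothelial list (adjusted p from exact permutation 0.0117 to 0.0145). These 9 samples span both vectors, so the group difference is part of the relation.

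**Figure D5:**
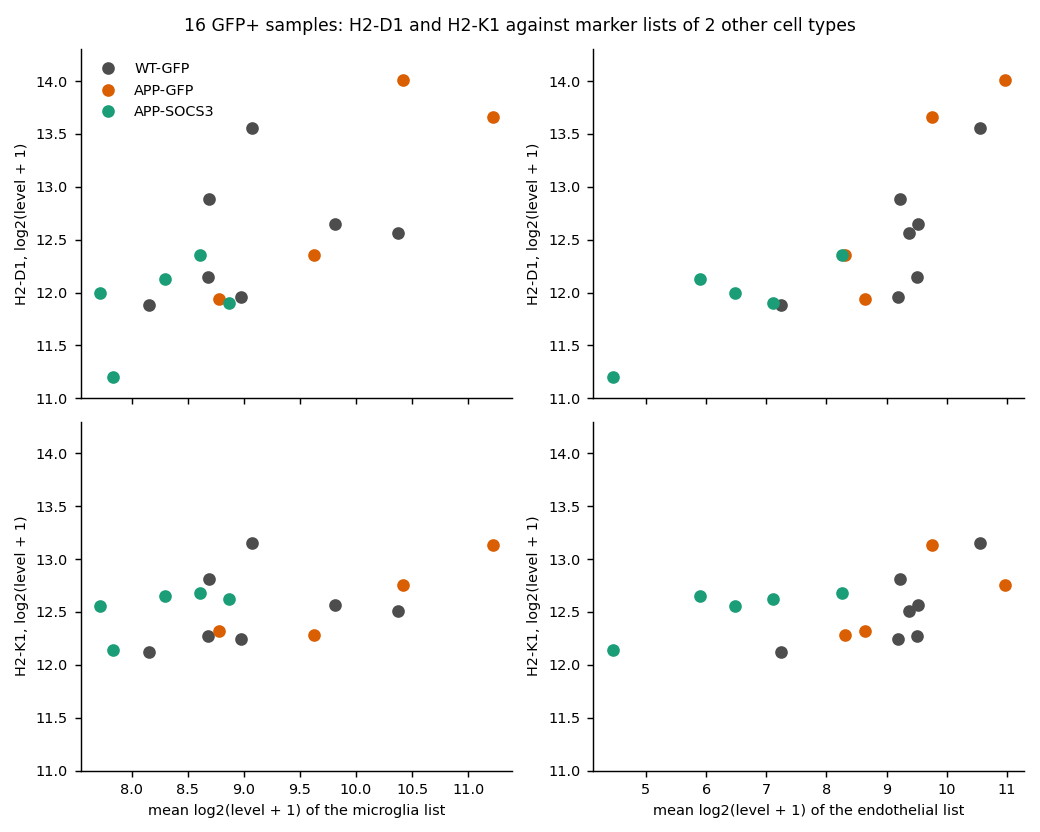
Log2(level + 1) of H2-D1 and H2-K1 against the mean log2(level + 1) of the microglia and endothelial marker lists, with 1 point per GFP+ sample coloured by group. Over the 16 samples r is 0.740 and 0.800 for H2-D1 and 0.474 and 0.482 for H2-K1.

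The members also varied together across the 16 GFP+ samples, which is given as a description. The closest pairs were H2-D1 with B2m (r = 0.885), H2-D1 with H2-T23 (r = 0.864), H2-K1 with H2-T23 (r = 0.854) and Psmb8 with Psmb9 (r = 0.824). H2-D1 and H2-K1 had r = 0.804 over all 16 samples and 0.992 in the 7 WT-GFP samples. Tap1 and Tap2 were the least alike, with r = -0.34. Likeness was then ranked over the 10237 genes whose mean here reached 100. Those most like B2m were Fcer1g (r = 0.938), Aif1 (r = 0.920) and Tmsb4x (r = 0.914). Those most like H2-D1 were Arpc1b (r = 0.940), Ier2 (r = 0.925) and Mir6961 (r = 0.922), and those most like Psmb8 were Polr2m (r = 0.871), Ccl3 (r = 0.851) and Fcrls (r = 0.846). Aif1 and Fcrls were in the microglia list.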

How the data were processed

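RNA of sorted hippocampal cells was amplified with the SMARTer low-input kit, made into Nextera XT libraries and sequenced as paired reads. The authors aligned reads with STAR 2.4.0 to mm10, counted them on constitutive gene regions of their FAST DB annotation, and normalised them with DESeq2. The deposited values are these normalised read counts (signal: counts divided by a size factor). FastQC, Picard and SAMtools are also named in the submitters' processing notes. The library kit does not mark strand, and the handling of reads that match several genes is not given in the sources used here. Libraries were amplified by PCR without molecular identifiers, so counting precision covers sampling of reads only.

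Groups came from the sample labels, and all columns were mapped. Whole reads were recovered for 100% of values (tolerance 0.02 reads) and used for depth, edgeR and DESeq2. The 34671 entries without a symbol stayed in every fit. The members were taken by symbol, the entry of Cd74 also covering Mir5107. Members, gene lists and marker lists were chosen with earlier results of these data known. Genes whose mean reached 10 in 1 of the groups compared were fitted with limma 3.58.1 (R 4.3.3, mean-variance trend) on log2(level + 1), so fitted folds of low genes depend on the added 1 and, where samples are at 0, can differ from the ratio of means. The thresholds, p of at most 0.05 and 1.5-fold, follow the study's methods. Benjamini-Hochberg adjustment covered all genes tested. Each member also had a two-sided exact permutation test of group means. Intervals are at 95%. Correlations used Pearson's r and Spearman's rho with two-sided permutation p (100000 resamples for 16 samples, exact for 7 and 9), adjusted over 20 relations. Pathway genes were named where called with groups that did not overlap, at most 3 per role and comparison by smallest p, beside a fixed set of 9, of which 1 is not reported here. The alternatives were edgeR 4.0.16, DESeq2 1.42.0, other pseudocounts, filters, scalings and thresholds, a joint fit, sample weights, a replicate block, 2 marker covariates and leaving out each sample. Fits were tested on simulated data. Levels were not compared between genes, because gene lengths were not used. Replicate numbers were not used to pair the samples, except in the replicate block.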

Additional observations from a re-analysis of the deposited data

Results flagged for a closer look

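In 1 of 30 tests of a gene within a group of 4 to 7 samples, a sample stood far from the others by Dixon's criterion: H2-K1 in APP-SOCS3 5, at a level of 4511, beside 6020.2 to 6541 in the other 4 samples of the group. Chance flags about 1 in 20 such groups. The same sample also had the lowest H2-D1, H2-T23, B2m, Tap2, Psmb8, Psmb9 and Cd74 of its group and the lowest endothelial marker sum, 1389.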

How the results depend on the processing

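Of 1060 member values under alternatives, 918 kept direction and side of the threshold, 59 were no longer called, 11 became called, 8 reversed and 64 changed sign with neither value called (at most 2.42 on the log2 scale). In GFP- against WT-GFP, 9 members were called, and 8 to 9 when a sample was left out. Without GFP- 1, Cd74 was not called (5.22). With the microglia list as a covariate 0 were called and Cd74 was at -2.61. With the endothelial list 2 were called: B2m was at 1.51 and Tap2 at -1.29, and Psmb8 at -0.012, Psmb9 at -0.55 and Cd74 at -5.12. These lists separate GFP- from GFP+ samples almost fully, so the covariate takes up the group. In APP-GFP against WT-GFP, 0 to 1 members were called when a sample was left out: Tap2 without WT-GFP 1 (-0.59), and B2m without APP-GFP 1 (0.59). In APP-SOCS3 against APP-GFP, 3 were called, and 5 with DESeq2, 1 with sample weights, 0 at an adjusted limma p under 0.05, 0 with either covariate (H2-D1 at 0.23 with both, Cd74 at -2.25 with the endothelial list) and 0 to 5 when a sample was left out. In APP-SOCS3 against WT-GFP, 1 was called, and 2 with DESeq2, but 0 with a pseudocount of 0.1, a minimum level of 100, equal upper quartiles, all samples in one fit, an adjusted p, a 2-fold threshold or either covariate (H2-D1 at 0.34 with the endothelial list), and 0 to 2 when a sample was left out. The 2 were seen without WT-GFP 1, and the 0 without WT-GFP 2, 4, 5 or 6 or APP-SOCS3 2, 3, 4 or 5. Keeping only GFP+ samples with at least 20000 genes, chosen after seeing the data, gave 1 call in APP-SOCS3 against APP-GFP (Cd74, -3.10) and 2 against WT-GFP (Cd74, -3.38). The correlations with marker lists passed for 10 relations over 16 samples and 0 in WT-GFP alone. In the 9 samples of APP mice, which span both vectors, H2-D1, B2m, Psmb8 and Psmb9 passed with both lists and H2-T23 with the microglia list. Same-numbered samples correlated between -0.08 and 0.15 in their deviations, and differently numbered samples between -0.18 and 0.10. In APP-GFP against WT-GFP the highest values, 0.15 and 0.11, were of same-numbered samples. In APP-SOCS3 against APP-GFP all same-numbered values were above 0, at 0.006 to 0.089. Whether same-numbered samples share an origin was not tested. With a replicate block, 1 member was called in APP-SOCS3 against APP-GFP and 0 against WT-GFP. Apart from the settings that show it by construction (fewer samples, stricter thresholds), the cause of these changes was not tested.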
